A study of Drosophila melanogaster with 8 samples.

Results

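Isolated KDM5 peaks are binding regions with no other peak close by on their chromosome arm. They were chosen by the deposited peak values themselves: a peak on arm 2L, 3L or 3R was a member when no other peak centre lay within 30 kb of its own, when it was under 3000 bp wide and when its binding score was under 7.5. The rule found 112 members among the 3120 peaks of these arms and the 4931 peaks of the whole study, 33 on 2L, 37 on 3L and 42 on 3R. Together they covered 171276 bp. The rule used no annotation and no sequence. It did select on the surroundings, since it asked for DNA without another peak, and measures of the surroundings are given with that tie stated.

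The study mapped where KDM5 contacts the genome in the larval prothoracic gland of Drosophila melanogaster by Targeted DamID. In 4 samples a fusion of the bacterial Dam methylase to KDM5 was expressed (UAS-LT3-damkdm5), and in 4 samples Dam alone (UAS-LT3-dam), both under spok-Gal4, a driver active in the prothoracic gland, with tub-Gal80[ts] holding the driver off at the lower temperature. All larvae were otherwise treated alike: eggs were laid for 24 h, kept for 5 days at 18 °C and moved to 29 °C for 2 days, and 100 wandering larvae of the last instar were pooled per sample. Whole larvae were extracted, so the assignment to the gland rests on the driver, and a map of binding holds no expression markers with which to check it. The authors averaged the replicates before calling peaks, so each peak has 1 score, 1 false discovery rate (FDR) and no replicate error. The paper states 1 read number for the DamID sequencing, and the depth reached in each sample was not available here.

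KDM5 is a demethylase of trimethylated lysine 4 of histone H3, a mark that sits at the start of active genes, and it acts both on and apart from that mark as a regulator of transcription. The prothoracic gland makes the steroid ecdysone, whose pulses time the larval molts and the entry into metamorphosis. In DamID the fusion protein methylates adenine in the sequence GATC around the places it visits, and the methylated fragments are cut out and sequenced. A peak is therefore a run of GATC-bounded fragments, and every one of the 4931 peaks began and ended at a GATC site of the Release 6 genome (dm6 coordinates). The score is the deposited value relative to Dam alone. No source used here gives its log base.

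The central bases of 6 members show the DNA at the middle of these peaks: the 3 highest-scoring and the 3 most isolated members whose 300-base centre holds no annotated UTR. They are reference sequence of the RefSeq Release 6 assembly, plus strand, 5′ to 3′. Capitals mark GATC and any match, on either strand, to a motif: in these windows the word GAGAG, the TATA box TATAAA and the repeat CACACACA were found.
CG5849, chr3R:21740782-21741081, score 7.40: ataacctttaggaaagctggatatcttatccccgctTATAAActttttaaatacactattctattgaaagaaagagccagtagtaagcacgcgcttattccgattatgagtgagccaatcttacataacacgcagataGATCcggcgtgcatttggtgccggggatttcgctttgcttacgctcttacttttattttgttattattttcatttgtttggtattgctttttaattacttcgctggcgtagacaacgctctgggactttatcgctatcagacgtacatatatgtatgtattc
CG11357, chr3L:4544286-4544585, score 6.61: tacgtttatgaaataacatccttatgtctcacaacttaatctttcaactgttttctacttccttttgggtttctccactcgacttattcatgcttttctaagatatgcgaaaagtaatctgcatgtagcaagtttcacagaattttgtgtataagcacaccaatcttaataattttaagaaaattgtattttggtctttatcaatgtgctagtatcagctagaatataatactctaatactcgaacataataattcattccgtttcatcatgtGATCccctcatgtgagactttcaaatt
CG46301 with CG15293 and CG31769, chr2L:14108883-14109182, score 6.57: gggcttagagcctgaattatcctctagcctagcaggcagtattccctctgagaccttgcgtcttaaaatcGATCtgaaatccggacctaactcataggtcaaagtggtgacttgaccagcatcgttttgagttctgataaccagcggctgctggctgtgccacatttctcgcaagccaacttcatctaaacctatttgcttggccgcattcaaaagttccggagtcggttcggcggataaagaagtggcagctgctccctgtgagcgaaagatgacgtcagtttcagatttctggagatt
Spf30, chr3L:23715871-23716170, score 5.61: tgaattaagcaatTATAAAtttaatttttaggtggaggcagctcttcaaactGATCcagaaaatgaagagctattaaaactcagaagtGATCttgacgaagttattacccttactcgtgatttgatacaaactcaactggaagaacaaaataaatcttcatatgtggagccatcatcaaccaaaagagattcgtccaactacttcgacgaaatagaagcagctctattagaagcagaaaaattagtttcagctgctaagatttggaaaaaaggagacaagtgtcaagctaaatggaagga
lace, chr2L:15499995-15500294, score 2.67: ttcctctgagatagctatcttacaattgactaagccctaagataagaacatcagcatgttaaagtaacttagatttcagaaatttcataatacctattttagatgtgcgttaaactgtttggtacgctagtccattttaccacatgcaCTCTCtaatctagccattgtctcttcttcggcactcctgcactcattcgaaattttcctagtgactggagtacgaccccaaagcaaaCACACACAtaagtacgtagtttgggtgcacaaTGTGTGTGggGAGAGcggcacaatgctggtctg
CG10359, chr3L:3613343-3613642, score 4.84: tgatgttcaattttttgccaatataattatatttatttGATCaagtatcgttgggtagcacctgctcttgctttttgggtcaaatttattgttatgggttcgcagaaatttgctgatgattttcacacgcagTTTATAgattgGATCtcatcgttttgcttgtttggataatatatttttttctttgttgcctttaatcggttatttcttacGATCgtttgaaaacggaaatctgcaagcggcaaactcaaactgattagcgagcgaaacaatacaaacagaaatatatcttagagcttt

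The stretches from CG5849, CG11357, lace and CG10359 hold no coding base and lie in introns. Those from CG46301 and Spf30 hold 258 and 269 coding bases of 300. Their GC content ran from 31.3% at CG11357 to 48.7% at CG46301. The lace stretch has no GATC, whereas the CG10359 stretch has 3.

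By the rule, the distance from a member's centre to the next peak started just above the limit. The median distance was 44088.5 bp, with quartiles of 35267 and 68869 bp. It was under 40 kb for 47 members, over 100 kb for 14 and over 500 kb for 3. Scores had a median of 4.64, quartiles of 3.39 and 5.59 and a range of 1.42 to 7.40, and widths a median of 1491.5 bp. Distance, score and width chose the members and are given as a description. Of the 144 isolated peaks of any size on the arms, 25 exceeded the width limit and 7 the score limit. These 32 peaks, and the 2450 peaks that met both limits but had a neighbour within 30 kb, serve as the comparison groups. The rule did not use the deposited FDR. Its median was 6.72e-05 for members, 2.12e-07 for the 2450 neighboured peaks and 5.44e-05 for the 32 isolated peaks over a limit.

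At the edges of the rule, the CG5849 peak was the last inside the score limit at 7.40, and CG9932 lay outside at 7.62. For width, the peak over Spc25 and grsm (2957 bp) was inside and that in Tet (3063 bp) outside. For isolation, the peak over CG32259 and wit, with a neighbour at 30160 bp, was inside, and that in form3 (29521 bp) outside.

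**Figure D1:**
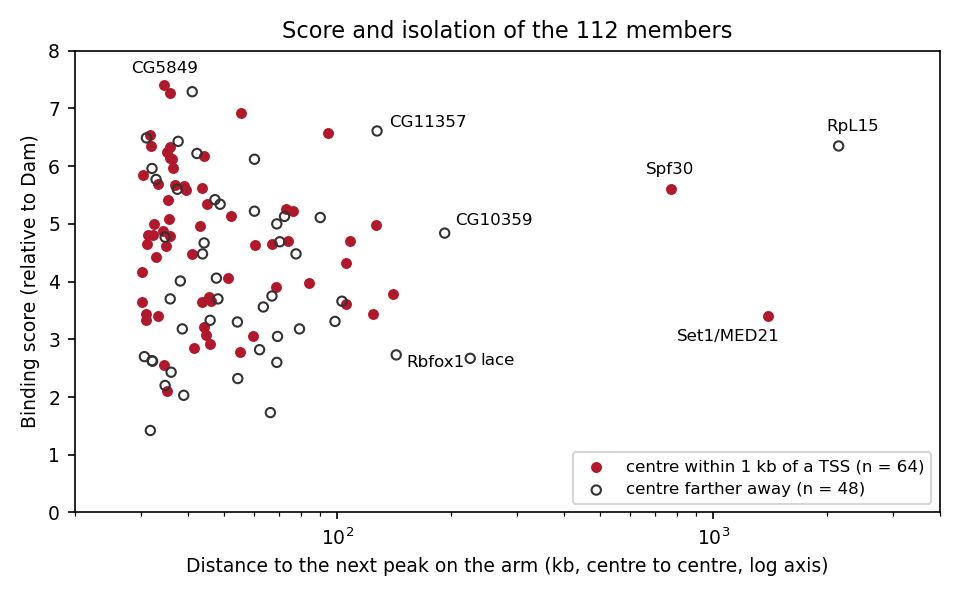
Binding score (y axis, relative to Dam) of the 112 members against the distance from centre to centre to the next peak on the arm (x axis, kb, log scale). Each point is a member, filled where its centre lies within 1 kb of a transcription start site (64 members) and open otherwise (48 members). Most points lie close to the 30 kb limit, and 3 members of 3L stand beyond 500 kb.

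Among the 10 highest-scoring members were peaks at genes of splicing, translation and calcium transport. The CG5849 peak (chr3R:21740446-21741417) scored 7.40, at an FDR of 2.98e-11, with its centre 827 bp downstream of the transcription start site (TSS). The peak over dnk, which encodes a deoxyribonucleoside kinase, and snRNP-U1-C, a subunit of the U1 splicing particle, scored 7.29. SPoCk, a calcium pump of the secretory pathway, followed at 7.26. The peak over CG7407 and eIF2A, a translation initiation factor, scored 6.93. CG11357 scored 6.61 and the peak over CG46301, CG15293 and CG31769 scored 6.57. Next came fru, the sex-determination transcription factor gene, at 6.54. The heca peak, in a gene needed by imaginal cells, scored 6.43, while RpL15 and Saysd1 tied at 6.35. One peak among the 10 strongest overlapped no protein-coding gene: it lay 179 bp past the end of side-IV over the antisense RNA genes asRNA:CR17025 and asRNA:CR46354, and scored 6.49. At the other end, the lowest score was that of a second peak in fru, 1.42, and side followed with 1.73. Both fru peaks lay 31794 bp apart in the same gene of 131314 bp. The order of these scores cannot be set against a replicate spread.

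The 3 most isolated members all lay in the proximal part of 3L. The peak at RpL15 (chr3L:27268216-27268703) had no other peak within 2153343 bp. Its centre was 1204 bp from the TSS of a gene of 1191 bp, which puts it just past the end of that gene, a component of the large ribosomal subunit. The peak over Set1 and MED21 (chr3L:25114131-25116102) was 1399096 bp from the next and scored 3.41. Set1 encodes a methyltransferase for the same histone residue that KDM5 demethylates, and MED21 a subunit of the Mediator complex. Spf30, a splicing factor gene, was 768960 bp from the next peak and scored 5.61. Repeats took up 42.4%, 52.0% and 25.2% of the 30 kb on each side of these 3 peaks, against a median of 17.1% for all members and 13.2% for neighboured peaks. No source used here says how reads from repeats were placed, and the part of repeats in this result was not tested.

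The next most isolated members lay at lace (225490 bp), which encodes a subunit of serine palmitoyltransferase, the first enzyme of sphingolipid synthesis, and at CG10359 (192886 bp). Rbfox1, an RNA-binding regulator of splicing, followed at 143337 bp, then scramb1, a phospholipid scramblase, at 140400 bp and CG11357 at 127466 bp. Fas3, a homophilic cell adhesion molecule, was 126987 bp from the next peak and scored 4.98. The peak over CG11737 and CG31454 completed the 10 at 124232 bp. The median score was 4.06 for the 14 members beyond 100 kb and 4.66 for the other 98.

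Most isolated peaks lay at the start of a gene. Of the 112 members, 90 (80.4%, exact 95% interval 71.8 to 87.3) overlapped the 1 kb around a TSS of a protein-coding gene, compared with 80.6% of the 2450 neighboured peaks and 75% of the 32 isolated peaks over a limit. By arm these were 29 of 33 members on 2L, 25 of 37 on 3L and 36 of 42 on 3R. The median distance from centre to TSS was 886.5 bp for members and 765.5 bp for neighboured peaks. These intervals cover counting error over peaks only, since all peaks came from a single averaged profile, and no test between the groups was made.

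The centres lay mostly on the transcribed side of the start. A total of 100 members (89.3%, 82.0 to 94.3) had their centre downstream of the nearest TSS, against 78.4% of neighboured peaks and 78.7% of all peaks on the arms. For the isolated peaks over a limit the share was 84.4% (67.2 to 94.7), an interval that covers all of these values. Within 1 kb, 48.2% of members lay downstream and 8.93% upstream, and the corresponding shares of neighboured peaks were 46.3% and 15.1%. In gene-dense DNA the TSS nearest to a centre may belong to a second gene on the other strand, and the members had fewer gene starts around them, a median of 4 against 12 within 30 kb. The part of gene spacing in this difference was not tested.

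**Figure D2:**
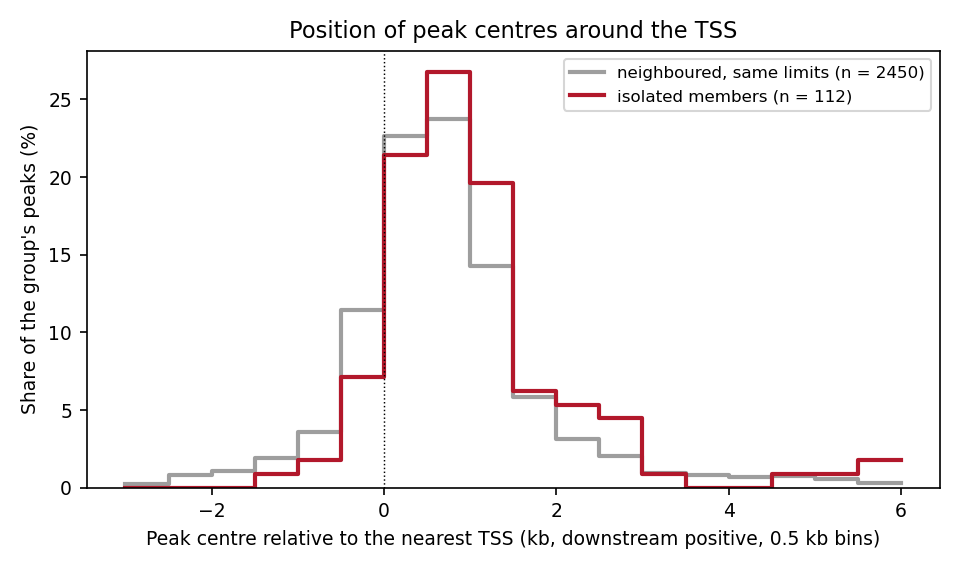
Share of each group's peaks (y axis, %) by position of the peak centre relative to the nearest protein-coding TSS (x axis, kb, 0.5 kb bins, positive downstream). The red line is the 112 isolated members and the grey line the 2450 neighboured peaks with the same limits. Peaks beyond the axis are not drawn. Both lines are highest in the first kb downstream, and the members' line is lower upstream, where 8.93% against 15.1% lay within 1 kb.

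A minority of members lay far from any start. Centres were over 2 kb from a TSS in 18 members and over 5 kb in 5. The farthest was the peak past the end of side-IV, 14623 bp from the nearest TSS. Awh, a LIM-homeodomain factor gene, held a peak of 368 bp in its first intron, 5774 bp downstream of the TSS. Rbfox1 followed at 5549 bp in a second intron, and CG42390 at 5286 bp in a coding exon. The peak nearest to Ttc30, an intraflagellar transport gene, lay between genes, 5049 bp upstream.

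Outside the 1 kb around starts, introns were the commonest place. Of the 112 centres, 64 (57.1%) lay within 1 kb of a TSS, 28 (25.0%, 17.3 to 34.1) in an intron farther away, 13 (11.6%) in coding exons, 4 (3.57%) in UTRs, 1 in a non-coding gene only and 2 between genes. Introns held 18.2% of neighboured centres and 59.4% of those of isolated peaks over a limit, which are wider. At any distance from a start, 70 member centres lay in an intron of at least 1 transcript of an overlapped gene. By the lowest intron number, 58 of these lay in a first intron. This wider count also takes in centres that lie in an exon of another transcript or gene, as at Dys. No coding base was covered by 33 members, and neither coding nor UTR bases by 11. These base counts and the wider intron count were made for members only. Without a share over all peaks beside them, nothing particular to the members is read from them.

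**Figure D3:**
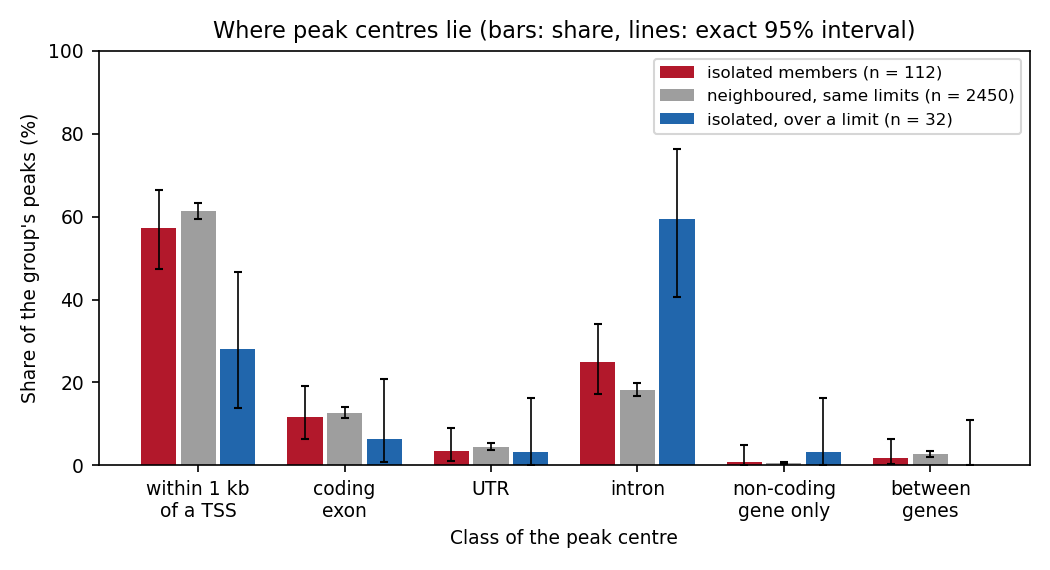
Share of peaks (y axis, %) whose centre fell in each class of position (x axis), with exact 95% intervals as lines. Red bars are the 112 isolated members, grey bars the 2450 neighboured peaks with the same limits and blue bars the 32 isolated peaks over a limit. The class within 1 kb of a TSS is the largest for members (57.1%), and introns come next (25.0%).

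The genes under isolated peaks were longer than those under neighboured peaks, and most members overlapped a single gene. The rule asked for DNA without another peak, and its part in gene length and in overlap with a single gene was not tested. The longest gene under a member had a median length of 8469 bp, against 4699 bp for neighboured peaks, and reached 20 kb in 39 members (34.8%, 26.1 to 44.4) against 14.2% of neighboured peaks. Among the isolated peaks over a limit, which are wider, the median was 31754 bp and 53.1% reached 20 kb, so long genes were not particular to the members. Members in genes of 20 kb or more and those in shorter genes both had a median of 4 gene starts within 30 kb. A single protein-coding gene was overlapped by 88 members (78.6%, against 60.1% of neighboured peaks and 65.6% of isolated peaks over a limit), 2 genes by 17, at least 3 by 5 and none by 2. In genes of 20 kb or more the centre lay in an intron away from the start in 15 of 39 members (38.5%), and in shorter genes in 13 of 71 (18.3%).

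The 5 members with the longest genes lay in bru1, Dys, hth and fru. The peak at the start of atilla also lay inside bru1, an RNA-binding protein gene of 138435 bp, and scored 3.91. Dys, the Drosophila dystrophin gene, spans 136204 bp and held a peak of score 5.22 with its centre 1264 bp downstream of a TSS. In hth, a homeodomain partner of Hox proteins that spans 132008 bp, the peak lay in the first intron 2943 bp downstream and scored 5.00. In fru the stronger peak (6.54) centred 976 bp and the weaker (1.42) 2530 bp downstream of an annotated start.

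Gene starts were sparse around members. Within 30 kb of a member's centre lay a median of 4 protein-coding gene starts (quartiles 2 and 7), against 12 (8 and 15) for neighboured peaks and 3 for the isolated peaks over a limit. This follows in part from the rule, because a window without another peak cannot hold many of the starts at which peaks lie. Counting only genes with no peak in their body, which the rule did not remove, the medians were 3 (1 and 5.25) for members and 5 (3 and 7) for neighboured peaks. Starts were also summed over the members, so a start within 30 kb of 2 members counted for each. Of these 565 starts, 425 (75.2%) belonged to genes with no peak. The share was 44.5% around neighboured peaks and 72.4% around isolated peaks over a limit. The rule raises this share by leaving no other peak in the window. At most 5 starts surrounded 75 members, and at least 10 surrounded 18.

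Not all isolated peaks lay in gene-poor DNA. The l(3)mbn peak had 19 gene starts within 30 kb, of which 18 belonged to genes without a peak. The CG5849 peak had 11 starts, 10 of them of such genes, and the Saysd1 peak 13 with 12. By contrast, both fru peaks, the Rbfox1 peak and the peak in Glut4EF and CG46467 had 0 outermost gene starts within 30 kb.

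**Figure D4:**
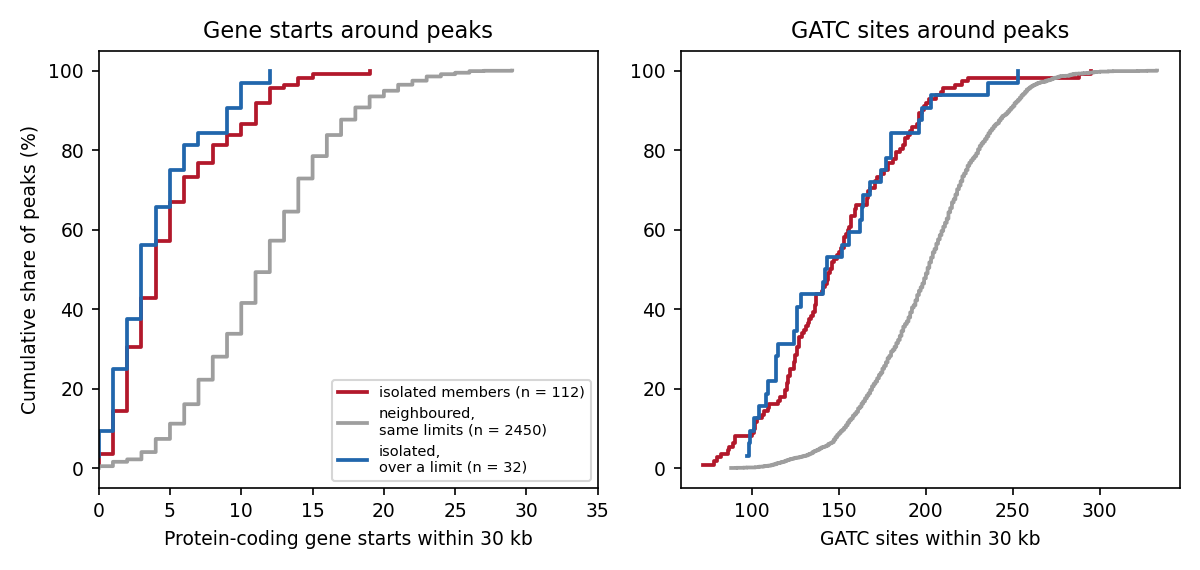
Cumulative share of peaks (y axis, %) by the number of protein-coding gene starts (left panel) and of GATC sites (right panel) within 30 kb of the peak centre (x axes). Lines show the 112 isolated members in red, the 2450 neighboured peaks in grey and the 32 isolated peaks over a limit in blue. Members have fewer of both than neighboured peaks, with medians of 4 against 12 gene starts and 145.5 against 201 GATC sites.

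The DNA around members also offered DamID fewer sites. The median number of GATC sites within 30 kb was 145.5 for members, 201 for neighboured peaks and 142.5 for isolated peaks over a limit. Inside the peaks the median was 5 fragments in both members and neighboured peaks. The central 500 bases had a median GC content of 40.0% in members (range 25.6 to 60.2), 44.2% in neighboured peaks and 40.5% in isolated peaks over a limit. Repeats made up over 50% of the surroundings of 2 members, those at Set1 and at Lamp1 (50.7%). The part of GATC density, base composition and repeats in the isolation of these peaks was not tested.

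Short motifs were counted in the central 500 bases of members and of all 3120 peaks of the arms. GAGAG, the core bound by GAGA factor, was found on either strand in 55 members (49.1%) and 45.8% of all peaks. TATAAA, the TATA box, was found in 59 (52.7%, 43.0 to 62.2) and 42.7%. The DRE core TATCGATA was in 0 members, which allows a share of up to 3.24% by the exact interval, and in 2.08% of all peaks. The motif GGTCACAC was in 1 member, against 2.08%. CACGTG, the E-box, was in 5 (4.46%, against 6.86%), and CACACACA in 6 (5.36%, against 8.85%). Over whole peaks the last pair turned direction, with CACGTG in 22.3% of members and 20.1% of all peaks and CACACACA in 25.9% and 24.0%. None of the 6 was in 22 members (19.6%, against 23.7%). Members whose centre held TATAAA had a median GC content of 38.2% and those without it 45.4%. The part of base composition in the share of this word was not tested. A match describes the letters only.

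The members overlapped 138 protein-coding genes, which is 1.57% of the 8817 on the arms, while 39.0% of these genes were overlapped by any peak. Because the rule used the peaks, these shares are the background against which gene groups are read. For 133 of the 138 genes the member was the only peak. The exceptions were bun, which held 8 peaks in all, CG32373 with 5, Glut4EF and CG46467 with 3 each, and fru, whose 2 peaks were both members. The rule largely sets the count of 133, because it left no other peak centre within 30 kb of a member's. Most genes under members are shorter than that (median 6529 bp). No matching share for genes under other peaks is given, so nothing particular to the members is read from this count. The authors' list of bound genes contained 135 of the 138 genes, 134 at the member's own score to within 0.005.

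Transcription factors of development were among the genes with an isolated peak. Of 49 homeobox genes 3 had a member (6.12%), 8 had other peaks only and 38 had none. These were hth at 5.00, vvl, a POU-domain factor, at 3.70 and Awh at 2.43. Of 88 other developmental transcription factors 5 had a member (5.68%), 25 other peaks only and 58 none. The zinc finger gene tsh, which patterns the trunk, scored 5.13, with its centre in the first intron, 1659 bp downstream of the TSS. The temporal factor gene chinmo scored 4.97, the BTB factor gene bab1 4.48 and Sox21b 3.73, and klu, named for completeness beyond the rule, 2.32.

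Genes of the neuronal cell surface gave 6 of 80 (7.5%), with 11 that had other peaks only and 63 with none. Fas3 scored 4.98, the Toll-family receptor gene Tollo 4.69, Nlg1, a neuroligin of the synapse, 3.66 and kek1, an inhibitor of the EGF receptor, 3.31. The others, Toll-6 at 2.63 and side at 1.73, were lower. Among 19 axon guidance genes only Sema5c had a member, at 6.34. Of 53 ion channels and synaptic receptors 2 had one, the calcium channel gene Ca-alpha1D at 3.97 and the muscle glutamate receptor gene GluRIIC at 3.67, the latter at an FDR of 0.00926. Among 44 neuropeptide and amine receptors it was AstA-R2 alone, at 2.60.

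Signalling genes had the highest share of the 14 lists, 5 of 52 (9.62%, against 1.57% of all genes), with 17 that had other peaks only and 30 with none. Any peak lay in 42.3% of them, against 39.0% of all genes. The share rests on 5 genes. The list's median gene length was 11340.5 bp, against 2080 bp for all genes, and its part was not tested. wit, a type II receptor of the BMP pathway, scored 3.65. The FGF receptor gene htl scored 3.44, dally, a heparan sulfate proteoglycan that binds secreted ligands, 3.30 and Toll (Tl) 2.82. The lowest of the group was vn, a ligand of the EGF receptor, at 2.10. These 5 scores were all under the members' median of 4.64.

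Cytoplasmic ribosomal protein genes had peaks in 44 of 54 cases (81.5%, against 39.0% of all genes). Isolated members lay at 2 of the 54 (3.70%), RpL15 at 6.35 and RpL5 at 6.17. Of 50 mitochondrial ribosomal protein genes 1 had a member (2.0%), mRpL11 at 3.41, and 29 had other peaks. Over all genes of the arms the share with a member was 1.57%. None of 25 ecdysone genes and none of 43 cytoskeletal regulators had a member, and 12 and 28 of them had other peaks. The 124 chemoreceptor and odorant-binding protein genes, 88 cuticle protein genes and 35 cytochrome P450 genes had 0 members too, and 118, 85 and 22 of them had no peak at all. At the background of 1.57% lists of these sizes hold few members or none, so nothing is read from the counts of 0. Lists differ in gene length, which sets how much sequence a peak can fall on: the median was 33176.5 bp for neuronal adhesion, 11340.5 bp for signalling and 12168 bp for homeobox genes, against 2080 bp for all genes. The part of gene length in these shares was not tested.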

How the data were processed

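Targeted DamID libraries of 4 Dam:KDM5 and 4 Dam samples were mapped by the authors to dm6, processed with damidseq_pipeline, averaged and passed to find_peaks and peaks2genes (no source used here names their versions). The deposited values are 1 score relative to Dam and 1 FDR (under 0.01) per peak, and 1 score per gene. Only averages are held, so no value or depth per sample and no replicate error was available here, and no test was run.

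Peaks were read with pandas 2.3.3 in Python 3.11.15, with coordinates as deposited, and set against Ensembl release 115 genes and RefSeq Release 6 sequence, both in dm6 coordinates. TSSs are starts of all transcripts of protein-coding genes, while gene starts in windows are outermost starts, 1 per gene. Intervals are exact Clopper-Pearson at 95% (SciPy 1.17.1). The classifications and motif search were tested on simulated data.

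The members, gene lists and settings were chosen with earlier results of these data known. Genes were named by a fixed rule: the 10 members highest in score, the 10 farthest from another peak, the 5 with the longest gene, the 5 farthest from a TSS, up to 4 per list by score and the peaks at each limit. Others (among them lowest scores and neighbouring genes) were chosen after their values were seen.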

Additional observations from a re-analysis of the deposited data

How the results depend on the processing

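No paired analysis was possible because the files hold only the average over replicates, and for the same reason no replicate could be left out. Of 96 alternative values over 13 results, 82 stayed within the main interval or within 1.5 times the main count.

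The number of members depended on the isolation radius, with 180 at 20 kb, which included all 112, and 44 at 50 kb. With distances taken between peak edges 103 remained. Among peaks with an FDR under 0.001 only, 119 qualified, of which 78 were shared, and the median number of gene starts within 30 kb became 6. Within 10 kb it was 2. The share overlapping the surroundings of a TSS was 71.4% at 500 bp, 92.9% at 2 kb and 57.1% when the centre had to lie in the window. With 1 outermost start per gene this share was 70.5%, the intron share 35.7% and the median distance to a start 1127 bp. Searching whole peaks, a longer stretch, gave GAGAG in 80.4% of members and 79.1% of all peaks, TATAAA in 80.4% and 73.4%, CACGTG in 22.3% and 20.1% and CACACACA in 25.9% and 24.0%. The order of members and all peaks turned for the last pair. TATCGATA was then in 2.68% and 6.6%. The resolution of every position is limited by the spacing of GATC sites.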

Other observations

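The stretches around the members, from their edges to the next peak or the end of the arm, were examined after the data were seen. In 109 members both sides ended at a peak, and the length of both sides together had a median of 165898 bp (55514 to 3549988, the last at Set1). At CG12567, RpL15 and Gfat1 a side ran to the arm end. With each base counted once, the stretches covered 34.1% of the arms and held 1307 of their 5374 protein-coding genes without a peak (24.3%). Such a stretch holds genes without a peak by construction. These genes had a median length of 1525 bp, against 6529 bp for the genes under members. The most, 112, lay around Lamp1, where 111 were copies of histone genes, a repeated cluster in which the placing of reads is uncertain. Around l(3)mbn, 18 of 21 were cuticle protein genes. Over the 14 lists, the share of genes without a peak that lay in the stretches ran from 7.89% (3 of 38 homeobox genes), with 3 of 30 signalling genes next, to 30.8% (4 of 13 ecdysone genes). No difference between lists was tested.

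Some genes near members were picked after the values were seen, and none of them had a peak in its body. For dib, which encodes a hydroxylase of ecdysone synthesis, the nearest peak was the member over CG32259 and wit, at 3625 bp. For Sox21a it was the member in its paralogue Sox21b, at 21266 bp. For sna, a zinc finger gene of the Snail family, it was the lace member at 20909 bp. The bab1 member lay 41312 bp from the paralogue bab2 and the tsh member 187965 bp from tio, but other peaks were nearer, at 12772 and 96545 bp. For the cell death genes rpr and skl the nearest peak was the member at MYPT-75D, 227630 and 186123 bp away.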
